A study of Mus musculus with 38 samples.

Results

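The brown adipose tissue profiles held RNA of 43 genes of skeletal muscle, and the amount of it differed more from array to array than between diets or doses. The 43 genes are all those whose name on the array equals a name on a list of contractile, calcium handling and metabolic genes of skeletal muscle fibres, out of 29411 gene names on the array. All 43 were present, and all 43 passed the filter on dim probes. The rule uses names and no measured value. The 15 genes typical of fast fibres were Myh1, Myh2, Myh4, Mylpf, Myl1, Tnnt3, Tnni2, Tnnc2, Pvalb, Actn3, Atp2a1, Mybpc2, Casq1, Myoz1 and Ampd1. The 7 typical of slow fibres were Myh7, Myl2, Myl3, Tnnt1, Tnni1, Tnnc1 and Myoz2. The 21 other muscle genes were Acta1, Ckm, Actn2, Mybpc1, Ttn, Neb, Eno3, Ryr1, Cacna1s, Mb, Des, Tcap, Trim63, Fbxo32, Pygm, Smpx, Xirp1, Myot, Tpm2, Sln and Mylk2.

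Total RNA of brown fat of C57BL/6J mice was hybridised to 38 arrays of 1 colour. Mice weaned at 3 to 4 weeks of age received the low fat control diet, with 10% of calories from fat (LFC, 10 arrays), or a high fat diet with added sucrose and 60% of calories from fat (HFC, 10 arrays). The remaining mice received the same high fat diet with the botanical formulation Kal-1 at 5, 20 or 75 µg (HF5, HF20 and HF75, 6 arrays each). The time points of LFC and HFC were 6, 10 and 14 days and then every 3 weeks from Week 0 to Week 18, those of the 3 doses ran from Week 3 to Week 18, and each group had 1 array per time point. Weeks were counted from day 14. Within a group, different time points stand in for replicates. The labels do not say how many animals an array represents or which fat depot was taken.

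A skeletal muscle fibre shortens when thick filaments of myosin pull on thin filaments of actin, and calcium released inside the fibre permits this through the troponins on the thin filament. Fast and slow fibres carry separate genes for the myosin heavy chains, the myosin light chains and the 3 troponin subunits, so the fibre type can be read from which of these genes is expressed. Brown fat cells arise from precursors related to those of muscle, and the brown fat between the shoulder blades lies over the muscles of the back. Brown fat cells are known for Ucp1, which lets mitochondria make heat, and not for contractile filaments.

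The proximal promoters of 4 of these genes are shown because the genes carry the pattern described here, 2 as general markers of muscle, 1 of fast and 1 of slow fibres. Each sequence is the 250 bases before the RefSeq start on assembly GRCm38.p6, and the capitals mark the E-box, CANNTG, the core sequence bound by the myogenic basic helix-loop-helix factors.
Acta1 (chr8:123894776-123895025, minus strand): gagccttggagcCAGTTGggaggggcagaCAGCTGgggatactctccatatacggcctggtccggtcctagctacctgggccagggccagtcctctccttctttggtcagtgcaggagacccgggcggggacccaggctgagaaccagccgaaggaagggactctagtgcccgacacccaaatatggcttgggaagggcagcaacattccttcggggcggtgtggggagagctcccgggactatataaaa
Ckm (chr7:19410844-19411093, plus strand): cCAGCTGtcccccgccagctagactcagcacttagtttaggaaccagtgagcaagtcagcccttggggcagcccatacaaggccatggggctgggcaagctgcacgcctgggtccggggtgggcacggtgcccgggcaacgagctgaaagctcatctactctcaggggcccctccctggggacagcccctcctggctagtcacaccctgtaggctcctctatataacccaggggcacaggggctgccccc
Myh4 (chr11:67237562-67237811, plus strand): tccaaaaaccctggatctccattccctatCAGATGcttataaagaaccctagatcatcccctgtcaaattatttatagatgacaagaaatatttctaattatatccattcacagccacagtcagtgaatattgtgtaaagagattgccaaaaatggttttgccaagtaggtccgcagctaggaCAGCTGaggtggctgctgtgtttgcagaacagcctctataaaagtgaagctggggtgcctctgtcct
Myh7 (chr14:54994627-54994876, minus strand): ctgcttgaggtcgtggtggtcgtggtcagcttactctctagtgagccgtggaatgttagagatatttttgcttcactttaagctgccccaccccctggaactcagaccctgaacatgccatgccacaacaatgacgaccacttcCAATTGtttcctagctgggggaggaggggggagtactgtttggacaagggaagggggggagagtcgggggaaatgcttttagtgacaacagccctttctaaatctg
The Acta1 and Myh4 windows hold 2 E-boxes each, and the Ckm and Myh7 windows 1 each. RefSeq gives Myh7 another start close by, whose overlapping window holds 2. Windows were at hand for 31 of the 43 genes, 37 windows in all. An E-box lay in 32 of these 37 windows (86.5%), against 66.2% of the 32851 windows of all genes. At least 2 E-boxes lay in 51.4% of the muscle windows and 31.8% of all windows. The longer binding sequence of the MEF2 factors was found in 5 muscle windows (13.5%, of Myh1, Myh4, Myoz2, Pvalb and Ttn) and in 1.69% of all windows. The CArG box of serum response factor was found in 3 (8.11%, of Acta1, Myh4 and Myl3) and in 1.47% of all windows, and TATAAA in 18.9% and 12.4%. Both strands were searched, and matches of the MEF2 sequence and of TATAAA may overlap. A match is a string of letters in the window, and binding was not measured.

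The myosin heavy chain genes are close relatives, so the probes read for them are given here by the opening 30 of their 60 bases, as printed in the array files.
Myh1 probe: ggaggttcacaccaaaatcataagcgaaga
Myh2 probe: cgcctgtgtgattctattccatcctgttgt
Myh4 probe: gaagaataatccatctttctgttgagaggt
Myh7 probe: tcagacctggagcctttgcaacagcccttt
Over their whole length any pair of these 4 probes shared a run of at most 8 bases. Transcript sequences were not at hand, so whether a probe also binds the transcript of a related myosin was not tested. Myh2, Myh1 and Myh4 lie side by side on chromosome 11 of GRCm38.p6, from 67171027 to 67260447, and Myh7 on chromosome 14. The Myh1 probe shared a run of 19 bases with the probe of Myh8, a neonatal myosin that is no member.

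The arrays differed in brightness, and 1 array went against its tissue label. The 75th percentile of the signal ran from 35.1 to 1209 intensity units, with 11 arrays above 600, called bright below, and 36.6% to 78.8% of probes were well above background. On bright arrays the highest signals lay 5.96 to 7.90 log2 units above the 75th percentile, and on the other 27 arrays 7.54 to 11.28, so abundant transcripts had less room on bright arrays. The HF75 Week 3 array had Ucp1 at -3.07, where the other 37 arrays had 3.38 to 8.57, and Cidea, a lipid droplet protein of brown fat cells, at -1.78 against 5.58 to 8.77. The mitochondrial subunit Cox7a1 and the fatty acid carrier Fabp3 were also below the range of the other 37 arrays there. The HFC Day 10 array had 1079 spots marked as outliers against 19 to 73 on the others, and lacked values for 6 of the 43 muscle genes. In bulk tissue, a greater number of muscle fibres and more muscle RNA per fibre cannot be told apart.

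All levels below are log2 signal relative to the 75th percentile of the array. They compare 1 probe between arrays, and not probe with probe. Acta1, the actin of skeletal muscle thin filaments, was at 6.40 on HFC Day 10, 6.27 on HF75 Week 12, 6.07 on HF20 Week 3 and 6.03 on HF20 Week 15. It was at -2.94 on HF20 Week 6 and -2.72 on LFC Week 0, a measured range of 647-fold, and its signal was above background on all 38 arrays. The same 4 arrays held the highest Ckm, the creatine kinase of muscle, at 3.70 on HFC Day 10, 3.12 on HF20 Week 15, 3.03 on HF20 Week 3 and 2.83 on HF75 Week 12. Ckm was lowest on HFC Week 3, not well above background, so that its range was at least 1140-fold. These 4 arrays came from 3 groups and 4 time points.

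For ranges, signals not well above background were raised to the lowest signal of the array that was, so a range that reaches such a signal is a lower bound. Across the 43 genes the median of these ranges was 8.47 log2 units, from 2.76 for Fbxo32, a ubiquitin ligase subunit of muscle protein breakdown, to 15.18 for Myh4, the myosin of the fastest fibres. The median over all 21862 genes tested, computed alike, was 3.49. A range above 10 was found for 14 of 43 muscle genes and for 0.627% of all genes tested. The highest value of 40 of the 43 genes lay on the 4 arrays named above, 17 of them on HF75 Week 12, 15 on HF20 Week 15, 7 on HFC Day 10 and 1 on HF20 Week 3. The exceptions were Xirp1, highest on HFC Week 18, Ttn, highest on HF5 Week 12, and Tpm2, highest on HF75 Week 3, the array low in brown fat markers. The lowest value of 39 genes lay on a bright array, and for 28 genes it was not well above background. Levels below are printed as measured, and such values give no order. Only 11 of the 43 genes were above background on all 38 arrays and 25 on at least 30.

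The heat map of the 43 genes shows the same columns dark through most of its rows. Exceptions lay in every block. Myl1 among the fast genes and Myl3 among the slow genes were above their medians on the 4 arrays where most genes were lowest, as were Actn2 and Des. Xirp1 and Tpm2 lay within 1 log2 unit of their medians on the 4 arrays where most genes were highest.

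**Figure D1:**
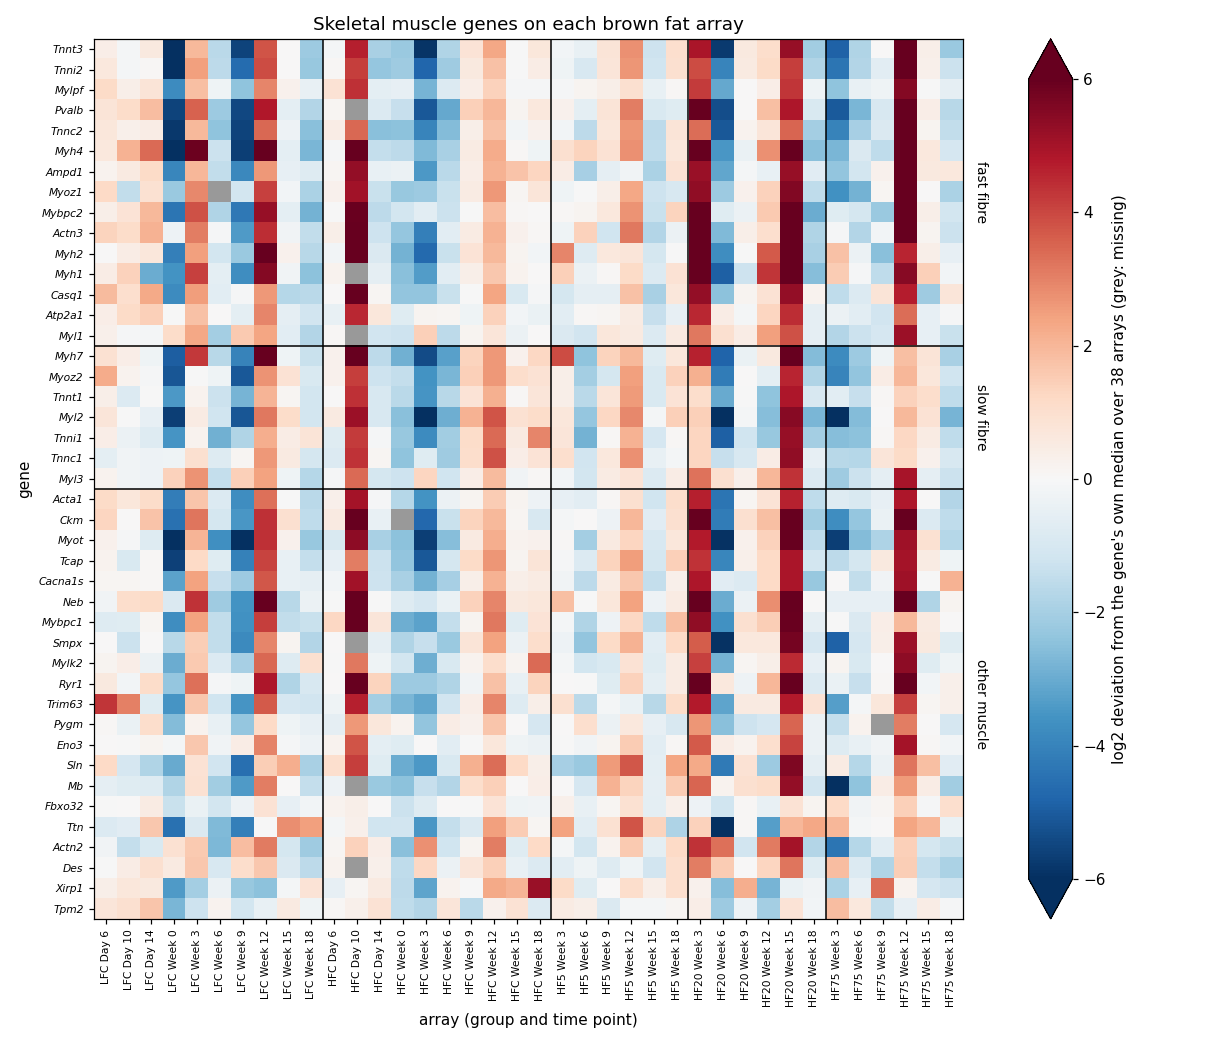
Log2 deviation of each of the 43 genes (rows) from its own median over 38 arrays on each array (columns, by group and time point), with red above, blue below and grey missing, in 3 blocks of 15 fast fibre, 7 slow fibre and 21 other muscle genes. HF20 Week 15, HF75 Week 12, HFC Day 10 and HF20 Week 3 are red for most genes, and LFC Week 0, LFC Week 9, HFC Week 3 and HF20 Week 6 are blue.

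The muscle level of an array was taken as the median over the 43 genes of the deviation of each gene from its own median over the 38 arrays. It was 4.98 on HF20 Week 15, 4.94 on HF75 Week 12, 4.53 on HFC Day 10 and 4.33 on HF20 Week 3. LFC Week 12 followed at 3.16, HFC Week 12 at 2.09, LFC Week 3 at 1.79, HF5 Week 12 at 1.60 and HF20 Week 12 at 1.03. The 9 arrays above 1 thus came from all 5 groups, and included all 5 arrays of Week 12. The lowest levels were -3.55 on LFC Week 0, -3.40 on LFC Week 9, -3.13 on HFC Week 3 and -3.05 on HF20 Week 6. The whole range was 8.53 log2 units as measured, with no bound applied. The lowest signal well above background lay between -6.45 and -5.95 on these lowest arrays. It lay at -1.71 on HF5 Week 18 and -2.47 on HF75 Week 18, so dim arrays had less room for low values. The part of this floor in the muscle level was not tested. With normexp background correction the same 5 arrays stayed highest, but HF75 Week 12 came to 1.03, HFC Week 12 to 0.62, HF5 Week 12 to 0.40 and HF20 Week 12 to -0.78, so that only 2 of the 5 arrays of Week 12 stayed above 1.

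The ranges of the groups overlapped in their muscle level. The lowest, median and highest values were -3.55, -0.10 and 3.16 in LFC, and -3.13, 0.07 and 4.53 in HFC. For the doses they were -0.90, 0.18 and 1.60 in HF5, -3.05, 0.54 and 4.98 in HF20, and -1.68, -0.60 and 4.94 in HF75, whose lowest array was HF75 Week 3 and whose next lowest was at -1.09. No HF5 array was among the 5 highest, and every other group had at least 1 there. The 75th percentile of the HF5 arrays ran from 35.8 to 173 intensity units, so none of them was bright.

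Brightness stood at both ends of the muscle level. Of the 9 highest arrays 6 were bright, and of the 6 lowest arrays 5 were bright. Over the 38 arrays the Pearson r of the muscle level with the log2 of the 75th percentile was -0.07. Whether brightness had a part in single values was not tested.

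**Figure D2:**
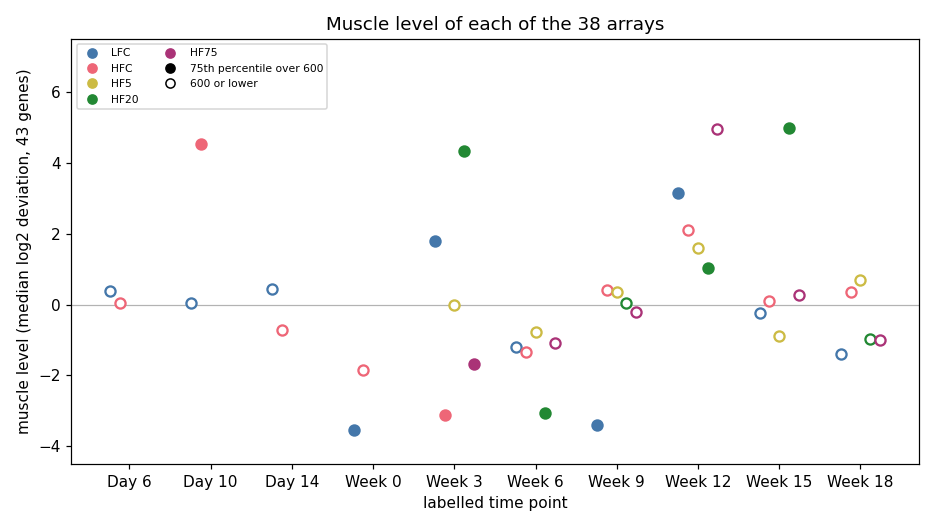
Muscle level (median log2 deviation of the 43 genes, y axis) of each of the 38 arrays at its labelled time point (x axis), coloured by group, with filled points for arrays whose 75th percentile was over 600 intensity units. All 5 arrays of Week 12 lie above 1, the 5 of Week 6 lie from -3.05 to -0.79, and at Week 3 the groups spread from -3.13 to 4.33.

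Arrays that shared a slide could differ widely. HF20 Week 15 was at 4.98 and HF5 Week 15, on the same slide, at -0.90, with 42 of 43 genes higher in HF20. HFC Day 10 was at 4.53 and LFC Day 10 on its slide at 0.03, with 35 of 37 measured genes higher in HFC. HF20 Week 3 was at 4.33 and HF5 Week 3 at 0.00, with 39 of 43 genes higher in HF20. The brightness differed within these 3 pairs too, since only the array with more muscle RNA was bright in each. The other 3 pairs on shared slides differed little. LFC Day 6 and HFC Day 6 were at 0.37 and 0.04, HFC Week 12 and HF5 Week 12 at 2.09 and 1.60, and HF20 Week 18 and HF75 Week 18 at -0.984 and -1.003.

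The fast fibre genes were high on all 4 arrays with the most muscle RNA. Myh4 was at 8.73 on HF75 Week 12, 6.40 on HFC Day 10, 6.36 on HF20 Week 15, 6.26 on LFC Week 12 and 6.20 on HF20 Week 3. By group its lowest, median and highest levels were -8.19, -0.57 and 6.26 in LFC, -3.25, -0.76 and 6.40 in HFC, -2.12, 0.29 and 2.14 in HF5, -4.12, 0.56 and 6.36 in HF20, and -3.37, -1.55 and 8.73 in HF75. The groups overlapped throughout. Its lowest value was not well above background, so its range was at least 37118-fold, and it was saturated on 2 bright arrays. Myh2, the myosin of the fast oxidative fibres, was at 6.26 on HFC Day 10, 5.81 on HF20 Week 15, 5.35 on LFC Week 12, 5.15 on HF20 Week 3 and 3.59 on HF75 Week 12. Myh1, the myosin of intermediate fast fibres, was at 5.62 on HF20 Week 15, 5.56 on HF20 Week 3, 4.23 on LFC Week 12 and 4.15 on HF75 Week 12, and was missing on HFC Day 10. Both Myh1 and Myh2 were lower on HF75 Week 12 than on HF20 Week 15. Myh4 was higher on HF75 Week 12, but on the bright arrays named here it lay among the most abundant probes. On HF20 Week 15 it stood beside Cidea at 6.43 and the adipocyte gene Fabp4 at 6.44. The highest signal of LFC Week 12 was 6.30, and that of HF75 Week 12 was 9.83. Values of Myh4 on these bright arrays may thus be lower limits, and their order against HF75 Week 12 cannot be read.

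Troponin T binds tropomyosin on the thin filament, troponin I blocks contraction at rest and troponin C binds calcium. Tnnt3, the fast troponin T, was at 6.13 on HF75 Week 12, 5.00 on HF20 Week 15, 4.64 on HF20 Week 3 and 4.44 on HFC Day 10. Tnni2, the fast troponin I, was at 8.43 on HF75 Week 12 and between 6.20 and 6.41 on the other 3. These fast subunits were thus high on all 4 arrays. Tnni2 was saturated on 3 bright arrays and Tnnc2, the fast troponin C, on 4, so their values on those arrays are lower limits. Pvalb, the calcium buffer parvalbumin of the fastest fibres, was at 4.86 on HF75 Week 12, 3.34 on HF20 Week 3, 1.75 on HF20 Week 15 and 1.71 on LFC Week 12, and missing on HFC Day 10. Like that of Myh4, its highest measured value was on HF75 Week 12.

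Most slow fibre genes divided the same 4 arrays into pairs. Myh7, the myosin of slow fibres, was at 6.39 on HFC Day 10 and 6.16 on HF20 Week 15, but at 2.85 on HF20 Week 3 and 0.03 on HF75 Week 12. Tnnt1, the slow troponin T, was at 4.25 on HF20 Week 15 and 3.76 on HFC Day 10, but at 0.78 on HF75 Week 12 and 0.44 on HF20 Week 3. Tnni1, the slow troponin I, was at 1.96 and 0.93 on HF20 Week 15 and HFC Day 10, and at -1.996 and -1.966 on HF75 Week 12 and HF20 Week 3. Myh7, Tnnt1 and Tnni1 were thus high on 1 pair of arrays and lower on the other. The slow gene Myl3 did not divide them so. It was at 4.76 and 3.85 on HF20 Week 15 and HFC Day 10, and at 5.38 and 3.70 on HF75 Week 12 and HF20 Week 3. Myl2, the regulatory light chain of slow fibres, was at 3.48 and 3.14 on HF20 Week 15 and HFC Day 10, and at -0.01 and -0.54 on HF75 Week 12 and HF20 Week 3. Sln, sarcolipin, a small regulator of the calcium pump, stood with the slow genes, at 1.51 and 0.04 on the former arrays and at -0.90 and -1.85 on the latter.

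The mean deviation of the 15 fast genes minus that of the 7 slow genes was 4.17 log2 units on HF75 Week 12, where the fast genes were at 6.24 and the slow genes at 2.07. It was 3.12 on HF20 Week 3, with 5.27 and 2.15. On HF20 Week 15 it was -0.08, with 5.30 and 5.38, and on HFC Day 10 it was 0.57, with 5.39 and 4.81, where 12 of the 15 fast genes had a value. Both kinds of fibre gene thus stood above their medians on all 4 arrays, with the slow genes far behind on HF75 Week 12 and HF20 Week 3. Without the members that came within 1 log2 unit of the highest signal of an array, the differences in the same order were 4.10, 3.41, 0.05 and 0.54. On HF20 Week 15 and HFC Day 10 themselves, 0 members came that close. Myh7 stayed in, at 6.16 and 6.39 on these arrays, where the abundant Fabp4 was at 6.44 and 6.53. This step therefore cannot show what part the ceiling had on HF20 Week 15 and HFC Day 10. All 15 fast genes were more than 3 log2 units above their own median on HF75 Week 12, and 6 of the 7 slow genes were less than 2 above theirs. The remaining slow gene there was Myl3, an essential light chain, at a deviation of 4.94.

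With normexp the difference fell to 1.82 on HF75 Week 12 and was 3.35 on HF20 Week 3, 0.52 on HFC Day 10 and 0.27 on HF20 Week 15.

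LFC Week 12 had a difference of 1.11, with the fast genes at 4.12 and the slow genes at 3.01, and LFC Week 3 one of 1.58, with 2.83 and 1.25. HF20 Week 12 had its fast genes at 1.60 and its slow genes at -0.68, a difference of 2.28. HFC Week 12 had the opposite order, with 1.87 and 2.89 and a difference of -1.02, and HF5 Week 12 had one of -0.38. The balance of fast and slow genes thus differed among the 5 arrays of Week 12. With normexp the differences were 1.89 on HF20 Week 12, 1.82 on HF75 Week 12, 1.47 on LFC Week 12, 0.23 on HF5 Week 12 and -0.40 on HFC Week 12. By group, the lowest, median and highest differences were -0.91, 0.11 and 1.58 in LFC, -1.02, -0.06 and 0.82 in HFC, -0.83, -0.36 and 1.58 in HF5, -0.08, 0.38 and 3.12 in HF20, and -0.85, 0.71 and 4.17 in HF75. These ranges overlapped.

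**Figure D3:**
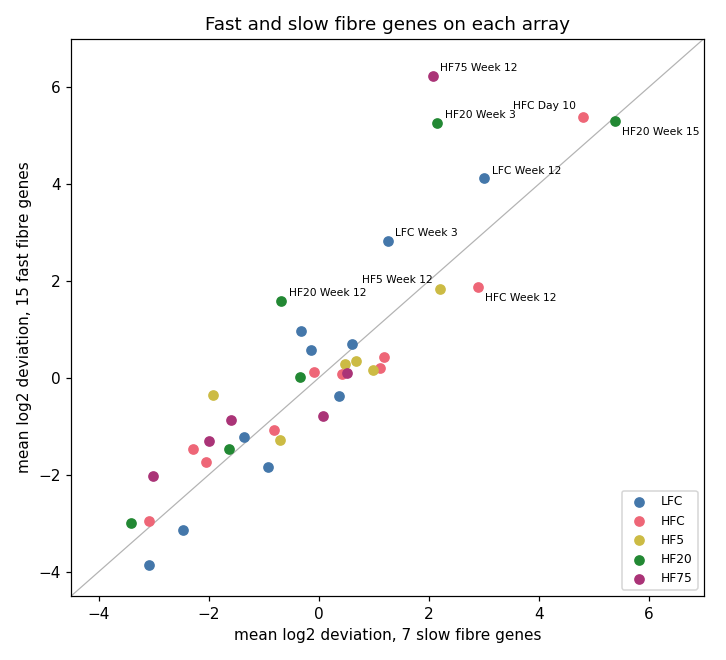
Mean log2 deviation of the 15 fast fibre genes (y axis) against that of the 7 slow fibre genes (x axis) on each of the 38 arrays, coloured by group, with the line of equality in grey. HF75 Week 12 (6.24 and 2.07) and HF20 Week 3 (5.27 and 2.15) lie above the line, and HF20 Week 15 (5.30 and 5.38) lies on it.

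The genes of neither fibre class included metabolic and structural members. Mb, myoglobin, the oxygen store of oxidative fibres, was at 5.53 on HF20 Week 15, 3.72 on HF20 Week 3, 3.29 on LFC Week 12 and 2.81 on HF75 Week 12, and missing on HFC Day 10. Eno3, the muscle enolase of glycolysis, was at 6.21 on HF75 Week 12, 5.26 on HF20 Week 15, 4.99 on HFC Day 10 and 4.88 on HF20 Week 3. Its lowest, median and highest levels by group were 0.92, 1.24 and 4.19 in LFC, 0.50, 1.08 and 4.99 in HFC, 0.57, 1.23 and 2.74 in HF5, 0.87, 1.95 and 5.26 in HF20, and 0.46, 1.05 and 6.21 in HF75. Eno3 was above background on every array, and its medians lay within 1 log2 unit of each other while its highest arrays stood far above them. Des, desmin, the intermediate filament of muscle cells, was at 1.76 on HF20 Week 15, 1.59 on HF20 Week 3, 0.15 on LFC Week 12 and 0.02 on HF75 Week 12, and missing on HFC Day 10.

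The ubiquitin ligases of muscle protein breakdown moved less or were hard to measure. Trim63 was above background on 11 arrays, and was at -0.35 on HF20 Week 3, -0.36 on HF20 Week 15, -0.42 on HFC Day 10 and -1.02 on HF75 Week 12. It did not only follow the muscle level. LFC Day 6, with a muscle level of 0.37, had Trim63 at -0.83, higher than on HF75 Week 12. LFC Day 10, at 0.03, had it at -2.10, and both values were above background. Fbxo32 was above background on all 38 arrays, at 0.20 on HF75 Week 12, -0.34 on HF20 Week 15, -0.88 on HFC Day 10 and -1.53 on HF20 Week 3, against a median of -1.21. Its range of 6.78-fold was the smallest of the 43.

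Each gene was set against the median deviation of the other members over the 38 arrays, as a description. The arrays are shared by all points, so these values carry no test. The median Pearson r was 0.89, with 21 genes above 0.9 and 33 above 0.8. With the 2 arrays of most extreme muscle level left out it was 0.86, with 29 genes above 0.8, and with brightness regressed out it was 0.91. Acta1, Ckm, Tnnt3 and Myot, which encodes the Z-disc protein myotilin, were highest, at 0.97 each. The 6 genes below 0.6 were Fbxo32 at 0.57, Ttn at 0.51, Actn2 at 0.47, Des at 0.45, Xirp1 at 0.28 and Tpm2 at 0.27. Des and Tpm2, a tropomyosin, are also expressed in smooth muscle, and Actn2 and Xirp1 encode a Z-disc actinin and an actin-binding protein. Xirp1 went with brightness at r = -0.70 and Des at 0.55, and the part of brightness in their values was not tested.

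For 15 genes the array held several probes, and they did not always tell the same story. The kept probe of Ttn, the giant spring protein titin, had r = 0.51, while the other 7 ranged from 0.47 to 0.94. Atp2a1, the calcium pump of fast fibres, had 0.80 with its kept probe and 0.95 with the other. Cacna1s, the voltage sensor of the calcium release machinery, had 0.92 and 0.15, and Myl3 0.70 and 0.31, with r = -0.06 between the 2 probes of Myl3. The pairs of Myh4, Myh7 and Tnnt3 followed each other at r = 0.99. The 2 probes of Myh1 did not, at r = 0.32 with each other. With the other members its kept probe had 0.89 and its other probe, above background on 24 arrays, 0.58. The likeness of Ttn thus depended on the probe, and the low value of Tpm2, at 0.27 and 0.23, was seen in both of its probes.

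**Figure D4:**
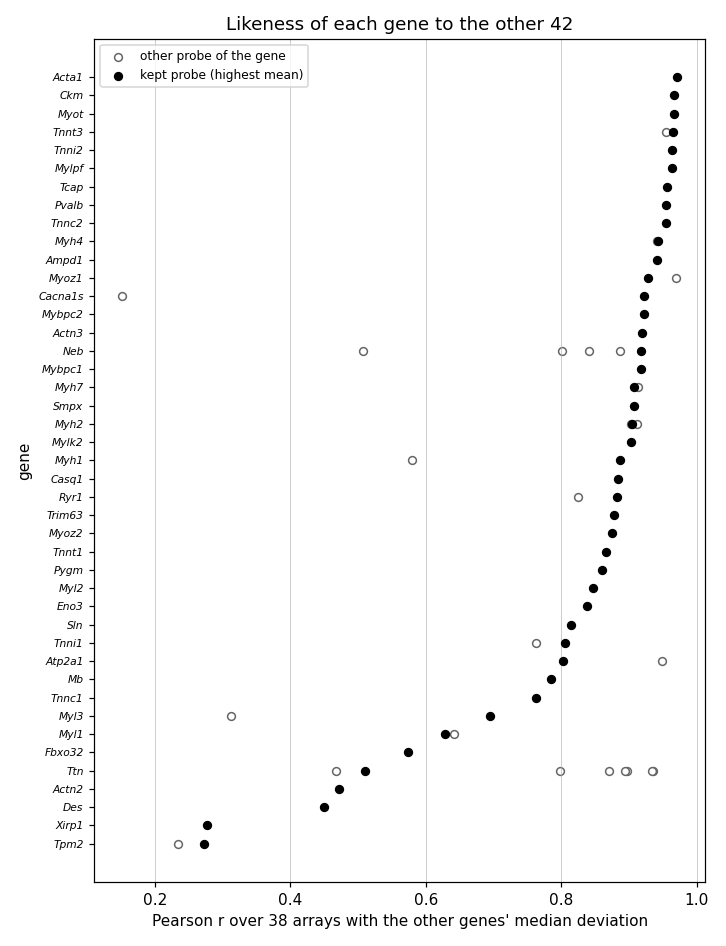
Pearson r over 38 arrays between the level of each of the 43 genes and the median deviation of the other 42 (x axis), with the kept probe filled and other probes of the same gene open. Of the kept probes 33 lie above 0.8, and the open points of Ttn reach 0.94.

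Among the 21819 tested genes that are no members the median r with the muscle level was 0.05, 51 genes were above 0.8 and 25 above 0.9. The 15 most alike were Apobec2 (0.98), Trdn, Cox6a2, Cmya3 and Pgam2 (0.97 each), Ckmt2 and Myom2 (0.96), Gm14492 and Abra (0.95), 3425401B19Rik, Myh8, Smtnl1 and Klhl31 (0.94), and 2310002L09Rik and Myo18b (0.93). Several are known muscle genes. Trdn encodes triadin of the calcium release complex, Pgam2 the muscle phosphoglycerate mutase, Myom2 an M-band protein and Cox6a2 the muscle isoform of a cytochrome oxidase subunit. The likeness is over 38 arrays and says nothing of shared control.

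A list held 39 names of other skeletal muscle genes, of which 35 were tested. Its median deviation followed the muscle level at r = 0.96, and 14 of its genes were above 0.8. Lists of other cell types did not follow it as closely. The r was 0.28 for 12 brown adipocyte genes, 0.25 for 7 adipocyte genes, 0.23 for 10 cardiac genes, 0.13 for nerve and motor endplate, 0.12 for lymphocytes, -0.04 for macrophages, -0.09 for erythroid cells and -0.30 for 8 smooth muscle genes. Ucp1 was at 6.28 on HF20 Week 3, 6.09 on HF75 Week 12, 6.75 on HF20 Week 15 and 6.68 on HFC Day 10, and its median on the arrays other than HF75 Week 3 was 6.28. On bright arrays abundant probes lay together under the ceiling, as on HF20 Week 3 with Cidea at 6.21 and Fabp4 at 6.23 under a highest signal of 6.59, so a change of Ucp1 could not be read there. The median deviation of the brown adipocyte list was 3.20 on HF20 Week 15, 2.51 on HF20 Week 3, 2.47 on HFC Day 10 and -0.38 on HF75 Week 12, and that of the erythroid list was -2.71, -2.16, -1.41 and 0.18 on the same arrays in that order. Both lists went with brightness, with medians of 2.47 and -2.34 over the 11 bright arrays and of -0.29 and 0.71 over the other 27. The median deviation of the smooth muscle genes was below 0 on all 4, at -2.14, -1.49, -1.53 and -1.11 for HF20 Week 15, HF75 Week 12, HFC Day 10 and HF20 Week 3. It was also below 0 where the muscle level was lowest, at -1.89 on LFC Week 0, -0.98 on LFC Week 9, -1.18 on HFC Week 3 and -1.47 on HF20 Week 6. Of the 11 bright arrays only HF75 Week 3 had it above 0, at 1.72. The part of these lists and of brightness in the result was not tested.

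The effect of the diet was asked by fitting HFC against LFC over 10 time points with the time point as a block. At an adjusted p under 0.05, limma called 0 of the 43 muscle genes, and 0 of the 21862 genes tested (0%). At an unadjusted p under 0.05 it called 1 muscle gene and 6.98% of all genes. The fitted difference was higher in HFC for 29 muscle genes and lower for 14, with a median of 0.24 log2 units against 0.06 over all genes. Acta1 averaged 1.54 ± 2.19 (SD, n = 10) in HFC and 1.18 ± 2.37 (SD, n = 10) in LFC. The smallest p values were those of Xirp1, at 1.32 ± 0.60 (SE, adjusted p = 0.643), with means of -2.87 in HFC and -4.19 in LFC, of Myl1, a fast light chain, at -0.55 ± 0.39 (adjusted p = 0.653), and of Sln at 1.19 ± 0.87 (adjusted p = 0.656). None differed beyond the spread of the differences over time points.

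The sign of the difference changed with the time point. The median difference of the 43 genes was positive at Day 10 (4.54), Week 9 (3.80), Week 18 (1.88), Week 0 (1.27) and Week 15 (0.28). It was negative at Week 3 (-4.74), Week 12 (-1.52), Day 14 (-1.16), Day 6 (-0.36) and Week 6 (-0.11). HFC was thus higher at 5 of 10 time points, and the SD over time points was 2.69, far above the fitted median. Only the HFC array was bright at Day 10, and only the LFC array at Week 0, Week 9 and Week 12. At Week 3 both were bright. The part of brightness in these single differences was not tested.

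The doses were each set against HFC over weeks 3 to 18, and all 3 comparisons share the same HFC arrays. For HF5, limma called 0 of 43 muscle genes and 0 of all genes (0%) at an adjusted p under 0.05, and 0 muscle genes and 5.45% of all genes at an unadjusted p under 0.05. The median of the muscle genes was 0.24 against 0.01 over all genes, with 31 higher and 12 lower. The smallest p values were those of Ttn at 1.28 ± 1.19 (SE, adjusted p = 0.875), Des at -0.65 ± 0.63 (adjusted p = 0.880) and Myh7 at 1.32 ± 1.63 (adjusted p = 0.901). The median difference was positive at Week 3 (3.09), Week 6 (0.42) and Week 18 (0.33), and negative at Week 15 (-0.995), Week 12 (-0.40) and Week 9 (-0.05). Without the HFC Week 3 array the fitted median was -0.32.

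For HF20 the median of the muscle genes was 1.31 log2 units against -0.20 over all genes, with 36 genes higher and 7 lower. Limma called 0 of 43 muscle genes and 0 of all genes (0%) at an adjusted p under 0.05, and 3 muscle genes (6.98%) and 33.2% of all genes at an unadjusted p under 0.05. The share of muscle genes was thus below the background. The HF20 arrays of Weeks 3, 6, 12 and 15 were bright, and of the HFC arrays in this fit only that of Week 3 was. Group and brightness thus cannot be fully told apart here. Eno3 differed by 1.60 ± 0.69 (SE, adjusted p = 0.127), Ryr1, the calcium release channel, by 2.60 ± 1.16 (adjusted p = 0.132), and Atp2a1 by 1.53 ± 0.71 (adjusted p = 0.142). Ryr1 was above background on 4 of 6 HF20 arrays and 1 of 6 HFC arrays.

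The higher muscle level of HF20 rested on 2 weeks. The median difference was 7.33 at Week 3, with 43 of 43 genes higher in HF20, and 4.70 at Week 15, with 41 of 43. It was negative at Week 6 (-2.01), Week 18 (-1.77), Week 12 (-1.03) and Week 9 (-0.28). HF20 was therefore higher at 2 of 6 weeks. The fitted median was -0.09 without Week 3, 0.47 without the HF20 Week 3 array, 0.52 without the HF20 Week 15 array and 0.68 without the HFC Week 3 array.

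For HF75 limma called 0 of 43 muscle genes and 0 of all genes (0%) at an adjusted p under 0.05, and 1 muscle gene and 9.14% of all genes at an unadjusted p under 0.05. The median of the muscle genes was 0.31 against -0.03 over all genes, with 27 higher and 16 lower. Fbxo32 differed by 0.65 ± 0.31 (SE, adjusted p = 0.545), Actn2 by -2.15 ± 1.05 (adjusted p = 0.550), and Xirp1 by -1.26 ± 1.0 (adjusted p = 0.640). The median difference was positive at Week 12 (2.75), Week 3 (0.84), Week 6 (0.24) and Week 15 (0.03), and negative at Week 18 (-1.11) and Week 9 (-0.79). The fitted median was 0.84 without the HF75 Week 3 array, which was low in brown fat markers, and -0.40 without the HF75 Week 12 array.

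**Figure D5:**
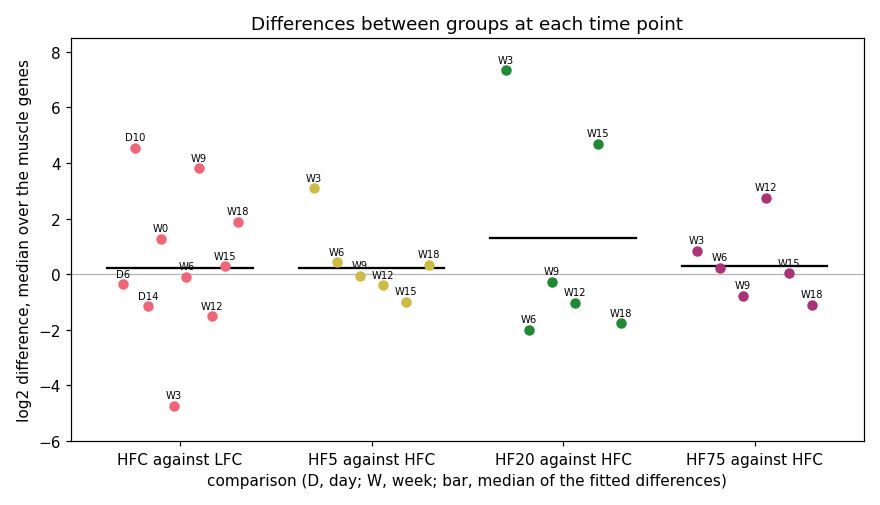
Median log2 difference of the muscle genes (y axis) between the arrays of each time point (points, labelled D for day and W for week) in the 4 comparisons (x axis), with the median of the fitted differences as a bar. The HF20 points at Week 3 (7.33) and Week 15 (4.70) lie above the bar of 1.31 and the other 4 lie below 0.

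The 3 doses were also compared with each other in a moderated F test. Of all genes 13.4% passed at an adjusted p under 0.05 and 37.3% at an unadjusted p under 0.05. Of the 43 muscle genes 0 passed the former and 5 the latter, by limma. The smallest p values were those of Des, with HF20 above HF5 by 1.73 and HF75 below HF5 by 0.10 log2 units (adjusted p = 0.063), Actn2, with differences of 1.94 and -1.47 (adjusted p = 0.065), and Atp2a1, with 1.97 and 0.42 (adjusted p = 0.094). With the slide as a random block 5 muscle genes (11.6%) passed, and 29.6% of all genes. Without the HF75 Week 3 array the test called 0 of all genes and 0 muscle genes. The HF20 arrays of Weeks 3, 6, 12 and 15 were bright, no HF5 array was, and of HF75 only that of Week 3 was. Over all arrays Des, Actn2 and Atp2a1 went with brightness at r = 0.55, 0.32 and 0.41. Dose and brightness thus cannot be fully told apart here.

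The trend over days was fitted on the arrays of both control groups with a term for the diet. Of all genes 1.63% passed at an adjusted p under 0.05 and 21.3% at an unadjusted p under 0.05, and of the muscle genes 0 and 2, by limma. The median slope of the muscle genes was 0.23 log2 units per 70 days against 0.04 over all genes, with 26 of 43 positive. Xirp1 had a slope of 1.31 ± 0.56 (SE, adjusted p = 0.182), Ttn of 1.40 ± 0.61 (adjusted p = 0.196) and Tnni1 of 1.27 ± 0.66 (adjusted p = 0.281).

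Differences among weeks 3 to 18, over all 5 groups, were tested after the array levels had been seen. Of all genes 5.28% passed at an adjusted p under 0.05 and 31.0% at an unadjusted p under 0.05. Of the 43 muscle genes 0 passed the former, by limma, and 23 (53.5%) the latter. The smallest p values were those of Tnnc1, the slow troponin C (adjusted p = 0.060), Mybpc2, a fast myosin-binding protein (adjusted p = 0.088), and Tnnc2 (adjusted p = 0.093). At Week 12, Acta1 was at 6.27 in HF75, 4.73 in LFC, 2.96 in HFC, 2.40 in HF5 and 2.22 in HF20, all above its median of 1.42. Weeks 3, 12, 15 and 18 were each scanned on 1 day, so that week and scan day cannot be told apart there.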

How the data were processed

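Total RNA of 38 brown fat samples was labelled with Cy3 and hybridised to 1-colour Agilent arrays on 32 slides, scanned on 12 days. The authors deposited the scanner output of each array, with intensity values per spot from Feature Extraction 10.5.1.1 per the file headers. The submitters' processing notes name another version. The processed signal is already corrected for background and is not scaled between arrays. A deposited table of log2 values set against LFC at each time point holds the authors' own comparisons and was not used.

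Control spots were left out and spots marked as outliers were set to missing. The log2 processed signal was taken relative to the 75th percentile of each array. Signals of a probe were averaged, and each gene was read from its probe of highest mean signal. The 21862 genes with a signal well above background on 6 or more of the 38 arrays were tested. A fold range whose lowest value was not well above background was computed against the lowest signal that was and is a bound. Gene positions and promoter sequences are those of RefSeq on GRCm38.p6, and 31 of 43 genes matched a promoter.

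Groups and time points came from the sample labels, where 1 array per group and time point is listed. The design text speaks of biological replicates, but the labels do not tie them to these arrays, so p values do not measure the spread between replicates. In the group comparisons they measure how the differences between groups varied over time points. Those of the test among weeks rest on how the arrays of the 5 groups varied within a week, and those of the trend on the spread around the fitted line. The same time point pairs the arrays of different groups by the labels, and it was the block in every group comparison. Fits used limma 3.58.1 in R 4.3.3 (lmFit, eBayes, two-sided), adjusted by Benjamini-Hochberg over all genes, at 0.05. HFC against LFC and the trend over days used 20 arrays, and the others the 30 arrays of weeks 3 to 18. Tables were made in Python 3.11.15 with pandas 2.3.3 and numpy 2.4.6. The fitting step was tested on simulated data.

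The members, the lists and the tests were chosen with earlier results of these data known. The 17 genes with values by array were named in the design, with the 3 smallest p values of each comparison and the 15 most alike other genes. Alternatives were quantile normalization, normexp (offset 50), no filter, a filter on every array, the mean over probes, the brightness class, the slide as a random block, no time point block, and each time point left out. Leaving out single arrays, the test among weeks, and leaving out members within 1 log2 unit of the highest signal were added after seeing the data. The number of arrays and the signal over background limit the precision.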

Additional observations from a re-analysis of the deposited data

Results flagged for a closer look

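A single array stood far from the rest of its group, by the gap to its nearest neighbour relative to the range of the group, in 9 of 95 sets of values tested. Chance alone would mark about 1 set in 20 if the sets were independent. The sets of a group share the same arrays, and most of the muscle genes behind them rose and fell together. The count of 9 therefore cannot be compared with that rate, and no excess over chance can be read from it. HF75 Week 12 accounts for 6 of the 9 marked sets. Its muscle level was 4.94, where the other HF75 arrays lay from -1.68 to 0.28, and its fast minus slow difference was 4.17, where the others lay from -0.85 to 0.98. Acta1 was at 6.27 there against -0.32 to 1.42, Ckm at 2.83 against -6.96 to -3.64 (not well above background on those 5 arrays, so that these values are no levels), Myh4 at 8.73 against -3.37 to 0.02, and Eno3 at 6.21 against 0.46 to 1.29.

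HFC Day 10 stood apart for Myh4, at 6.40 against -3.25 to 1.60 on the other HFC arrays, and for Eno3, at 4.99 against 0.50 to 1.89. It is also the array with 1079 spots marked as outliers.

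HF5 Week 6 stood apart in its fast minus slow difference, at 1.58 against -0.83 to -0.20 on the other HF5 arrays. Its muscle level was -0.79, with the fast genes at -0.35 and the slow genes at -1.93, both below their medians.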

How the results depend on the processing

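In HFC against LFC, HF5, HF20 and HF75 against HFC, the count of muscle genes called stayed at 0 under every alternative run. Among the doses the slide as a random block gave 5 (11.6%, against 29.6% of all genes), and leaving out a time point or a single array gave 0 to 2, with 1 without Week 9 and 2 without Week 18, HF20 Week 9, HF20 Week 18 or HF5 Week 18 (at most 4.65%, against 21.2% to 30.5% of all genes). Among weeks normexp gave 8 (18.6%, against 43.1% of all genes), no filter 3 (6.98% against 28.1%) and the brightness class 1 (2.33% against 7.63%), and leaving out a time point or an array gave 0 to 4, with 4 without HF20 Week 12 (9.30% against 8.32%), 2 without HF20 Week 15 (4.65% against 5.27%) and 1 without Week 3 (2.33% against 2.43%) or Week 15 (against 0.892%). In the trend normexp gave 1 (2.33% against 3.59%), and leaving out a time point gave 0. The cause of these changes was not tested. With no replicate block, the time point left out of the model, 0 muscle genes were called in each group comparison, and the medians were 0.28 for HFC against LFC, 0.24 for HF5, 1.31 for HF20 and 0.34 for HF75, so the block changed no call. Leaving out a time point, the medians ran from -0.04 to 0.79 for HFC against LFC, -0.20 to 0.50 for HF5, -0.09 to 1.87 for HF20 and -0.33 to 0.57 for HF75. Leaving out single arrays they ran from -0.32 to 0.63 for HF5, 0.47 to 1.92 for HF20 and -0.40 to 0.84 for HF75. The HF5 median was -0.34 with the slide as a random block and -0.12 with normexp. The counts of all genes called among doses moved from 2921 to 2372 with quantile normalization, 1237 with no block, 6463 with the slide as a block, and 0 with normexp, with no filter and with the brightness class. In the trend they moved from 356 to 927 with quantile normalization, 785 with normexp, 1735 with the brightness class and 68 with no filter, and among weeks from 1154 to 9423 with normexp, 8268 with no filter and 306 with the slide as a block. The 5 arrays with the highest muscle level were the same under the 5 alternatives run for it. The level followed the reported one at r = 0.98 with quantile normalization and 0.79 with normexp. With normexp the sign of the level changed on 12 arrays and that of fast minus slow on 14, 7 of the 9 highest arrays were shared, and HF75 Week 12 fell to 1.03 in muscle level and to 1.82 in fast minus slow.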

Other observations

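Developmental myosins and myogenic factors, which are no members, were also on the array. Myh8, the neonatal myosin, was at 9.34 on HF75 Week 12, 6.52 on HFC Day 10, 6.35 on HF20 Week 15 and 6.21 on HF20 Week 3, but its probe shares 19 bases with that of Myh1, so adult and neonatal myosin may not be fully separated. Myh3, the embryonic myosin, was at -1.40, -1.73, -3.62 and -4.83 on the same arrays, and its highest level, 1.12, was on LFC Day 14. Of the myogenic factors, Myf6, the one kept in adult fibres, followed the muscle level at r = 0.82 and Myog at 0.83, though Myog was above background on only 10 arrays. Myf5 was above background on 2 arrays, Pax3 on 3 and Myod1 on 8.

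Of 10 cardiac genes, Myh6, the alpha myosin of the heart, was at 1.90 on HF20 Week 15 and 1.78 on HFC Day 10, at -2.15 on HF20 Week 3, and not well above background on HF75 Week 12. The atrial peptide Nppa was not well above background on HF20 Week 15 and was at -4.86 on HFC Day 10. Of 8 genes expressed in muscle and brown fat alike, Cox6a2 and Ckmt2, the mitochondrial creatine kinase of muscle, followed the muscle level at 0.97 and 0.96, and the other 6 had r from 0.13 to 0.30. On LFC Week 9, an array low in muscle RNA, Ckmt2 was not well above background and Cox6a2 was at -3.65, while Ucp1 was at 6.02.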
